A study of Rattus norvegicus with 12 samples.

Results

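The comparison described here set rat hepatic progenitor cells labelled Tnfrsf1α-/- that had received TNFα (tumour necrosis factor alpha) for 1 hour against wild-type hepatic progenitor cells given TNFα for the same time. Hepatic progenitor cells (HPCs) are immature liver cells that can form hepatocytes and bile duct cells. Each of the 2 groups had 2 RNA-seq libraries, out of 12 libraries in 6 groups in the series: wild type, Tnfrsf1α-/- and Tnfrsf1β-/-, each untreated or given TNFα. All libraries carry the same age label, day 13.5 of gestation. The labels name no other allele or agent. The sources used here do not give the dose of TNFα, how the knockouts were made or whether the cells are a line or a clone. Whether a pair of libraries stands for separate cultures or animals is not stated, so p-values below cover the spread within pairs only, and that spread may be technical. The genes described are the 11860 with a mean FPKM (fragments mapped to a gene, scaled for transcript length and library total) of at least 1 over the 12 libraries, out of 22384 table lines with a gene symbol.

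TNFα is an inflammatory cytokine with a pair of receptors, TNFR1 (gene Tnfrsf1a) and TNFR2 (gene Tnfrsf1b). TNFR1 carries a death domain and is found on most cells, and through adaptors such as TRADD and TRAF2 it can switch on the transcription factor NF-kB, which drives chemokine genes and its own inhibitors, or start cell death. TNFR2 lacks a death domain and also signals through TRAF proteins. In the liver, TNFα is known as a signal at the start of regeneration and as a factor that acts on progenitor cells in chronic injury. The series title adds hnRNPK, an RNA-binding protein, and YAP, the transcriptional co-activator held back by the Hippo kinases.

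Levels below are log2(FPKM + 1), and differences are on that scale, treated Tnfrsf1α-/- minus treated wild type. When levels are given as pairs, replicate 1 comes before replicate 2. Tnfrsf1a itself was at 5.65 and 5.63 in treated wild type and at 5.65 and 5.95 in the treated libraries labelled Tnfrsf1α-/-. The gene was therefore not lower under the label that names it (difference 0.16, SE 0.19, limma adjusted p = 0.491), and every direction below rests on the label. Whether the remaining transcript is functional cannot be read from its level. Across the series Tnfrsf1a was lowest in the treated libraries labelled Tnfrsf1β-/-, at 4.85 and 4.71. Whether any labels were exchanged was not tested. Tnfrsf1b was at 2.58 and 2.43 in treated wild type, while under the label Tnfrsf1α-/- it was listed at 0 in replicate 1 and at 4.09 in replicate 2, on either side of the wild-type values (adjusted p = 0.728). Without replicate 1 of the label its difference was 1.59 (adjusted p = 1.76e-06) and without replicate 2 it was -2.50 (2.27e-08). Tnfrsf1b was also listed at 0 in both libraries of untreated wild type. A listed 0 can be a failed estimate in a table without counts. Because these are bulk libraries, fewer cells of a type and less RNA per cell cannot be told apart.

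The libraries themselves differed. The 2 treated libraries labelled Tnfrsf1α-/- had a Spearman correlation of 0.782 with each other over tested genes (genes being no independent replicates), against 0.994 for the 2 treated wild-type libraries. They differed from each other by over 2 log2 units in 1231 genes (10.4%), 764 of them higher in replicate 1, whereas the treated wild-type pair did so in 21 genes. Replicate 1 was closer to the untreated libraries of both knockout labels (0.851 and 0.859 for Tnfrsf1α-/-, 0.859 and 0.857 for Tnfrsf1β-/-) than replicate 2 was (0.611 and 0.630, and 0.635 and 0.629), and replicate 2 was closer to treated wild type (0.696 and 0.695) than replicate 1 was (0.617 and 0.606). The treated wild-type libraries stood apart from the rest: their correlations with untreated wild type were 0.638 to 0.646, while untreated wild type and the treated libraries labelled Tnfrsf1β-/- reached 0.953 to 0.983 with each other across genotype and treatment. Total FPKM was 1958823 and 2085916 in treated wild type and 1311294 and 1461416 under the label. Ribosomal protein genes held 7.5% and 7.8% of it in treated wild type, and 4.4% and 8.0% under the label. The part of these library differences in the results below was not tested, and counts over gene lists are given without a library where leaving it out moved them by over 1.5 times, counts of 1 or 2 genes aside.

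In all, 2697 genes (22.7%) were higher and 2659 (22.4%) lower in the treated libraries labelled Tnfrsf1α-/- than in treated wild type, by limma with Benjamini-Hochberg adjustment at an adjusted p under 0.05, and 6504 did not pass. The median difference of all tested genes was 0.08. The shares of 22.7% and 22.4% are the background for every count over a gene list below. Of the genes that passed, 422 of those higher and 480 of those lower differed by over 3 log2 units, and 7 and 14 by over 9. The libraries of the 2 groups did not overlap in any called gene, but they also did not overlap, with the knockout label higher, in 4307 genes (36.3%) and, with it lower, in 4053 (34.2%). The fit pools the spread over all 6 groups, so it understates the spread of genes in which the treated Tnfrsf1α-/- pair was widest. With only the 4 libraries compared in the fit 927 genes were higher and 1184 lower. Without replicate 2 of the label 4157 genes were higher and 3559 lower, while without treated wild-type replicate 2 the counts were 1402 and 1679, and without its replicate 1 they were 1740 and 1764. Both libraries of the label lay over 1 log2 unit above both wild-type libraries in 1465 genes (12.4%) and below both in 1437 genes (12.1%). They lay over 1 unit outside on opposite sides in 73 and 38 genes.

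**Figure D1:**
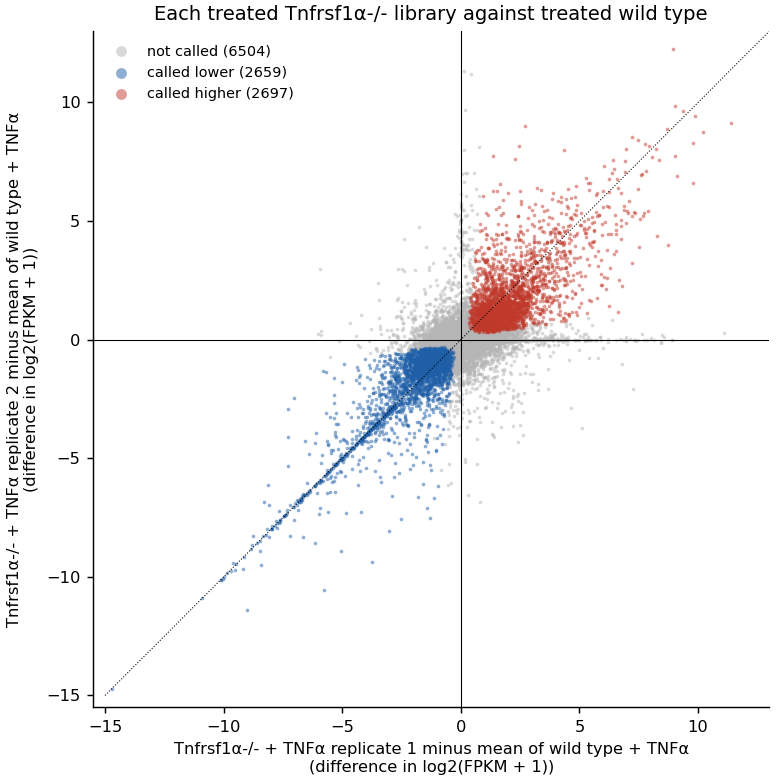
Each point is 1 of 11860 tested genes; the x axis is treated Tnfrsf1α-/- replicate 1 minus the mean of the 2 treated wild-type libraries and the y axis the same for replicate 2, in log2(FPKM + 1), with genes called higher in red, called lower in blue and not called in grey. The lower arm lies close to the dotted line of equality, where both libraries are near 0, while the higher genes scatter widely about it and uncalled genes run along both axes, where 1 of the 2 replicates is close to wild type.

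Genes of hepatocyte function were among the largest falls, with Ttr, Ahsg, Alb, Fabp1 and Apoe in the 15 lowest differences. Serum albumin, Alb, was at 10.01 and 9.92 in treated wild type and at 0.27 and 0.20 under the label (difference -9.73, SE 0.15, limma adjusted p = 1.98e-09). Transthyretin, Ttr, the carrier of thyroid hormone, fell from 10.24 and 10.46 to 0.25 and 0.20 (difference -10.13, adjusted p = 1.98e-09), and the fetuin Ahsg from 10.43 and 10.48 to 0.42 and 0.36 (difference -10.06, adjusted p = 1.98e-09). In each of these genes the 2 libraries of either group were close and the groups were far apart. The 8 libraries outside the comparison were low as well, with Alb listed at 0 in all of them and Ttr at 0 to 0.11, so that the treated wild-type libraries were the high pair of the series. Fabp1, the liver fatty acid binding protein, was at 9.92 and 9.86 against 0.35 and 0.19 (difference -9.62), and Apoe, a lipoprotein of remnant clearance, at 10.64 and 10.71 against 1.48 and 1.01 (difference -9.43). Alb, Ttr, Ahsg and Fabp1 passed the filter on low values only through treated wild type, so a difference was built into their selection.

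Promoter sequences of Alb, Fabp1, the fibrinogen chain Fgb and alpha-fetoprotein (Afp), all called lower, are shown because each holds a half-site bound by the HNF1 family of liver-enriched transcription factors. The sequences are the 200 bases before the RefSeq start on the build GRCr8, written 5′ to 3′ on the gene's strand, with the letters GTTAAT, or ATTAAC where the match is on the opposite strand, in capitals. Alb lies on the minus strand at chr14:17906980-17907179 with its match 82 to 77 bases before the start, Fabp1 on the plus strand at chr4:104749140-104749339 with its match at 117 to 112, Fgb on the minus strand at chr2:170700876-170701075 with an opposite-strand match at 90 to 85, and Afp on the minus strand at chr14:17875646-17875845 with its match at 135 to 130.
Alb: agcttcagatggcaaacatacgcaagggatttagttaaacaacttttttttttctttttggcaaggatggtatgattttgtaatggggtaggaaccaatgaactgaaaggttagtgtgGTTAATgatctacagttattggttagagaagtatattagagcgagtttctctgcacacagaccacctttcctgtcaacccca
Fabp1: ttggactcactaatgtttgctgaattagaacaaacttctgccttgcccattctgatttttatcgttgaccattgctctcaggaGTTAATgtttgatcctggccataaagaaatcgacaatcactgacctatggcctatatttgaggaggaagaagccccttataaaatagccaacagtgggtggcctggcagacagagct
Fgb: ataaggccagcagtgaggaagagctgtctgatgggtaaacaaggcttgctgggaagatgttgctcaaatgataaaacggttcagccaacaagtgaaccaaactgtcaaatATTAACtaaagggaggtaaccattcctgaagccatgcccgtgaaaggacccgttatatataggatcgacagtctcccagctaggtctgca
Afp: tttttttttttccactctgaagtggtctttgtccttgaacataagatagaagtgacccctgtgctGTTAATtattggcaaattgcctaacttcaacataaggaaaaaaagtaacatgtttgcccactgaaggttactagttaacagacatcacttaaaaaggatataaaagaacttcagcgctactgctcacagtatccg
In the window from 250 bases before to 50 after the start, on both strands, the half-site was in 106 of 1852 promoters (5.72%) of genes called lower, 70 of 1819 (3.85%) of genes called higher and 339 of 8000 (4.24%) of tested genes with a single RefSeq promoter. Over all 33469 promoters of the table the share was 7.45%. Of the called-lower genes in the lists of hepatocyte function 32 had a single RefSeq promoter, and 7 of these (21.9%) held the half-site. The group was formed from the calls themselves and is given with no test. Of the 8 motifs searched, this one was not alone in a larger share among these 32: the TATA box was in 28.1% of them against 6.3% of tested genes, and the TEAD site in 21.9% against 11%. A match of these letters is a description and does not show that the factor binds there.

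By list, 12 of 13 tested plasma protein genes fell, with a median difference of -6.58 against 0.08 over all tested genes. Of these 13 genes only 4 passed the filter on low values in the 8 libraries outside the comparison, 3 of which fell. The other 9 passed only through the 4 libraries compared, so a difference was built into their selection, and the same holds for many genes of the next lists. Retinol binding protein, Rbp4, was at 8.38 and 8.41 against 0.07 and 0.11, and the protease inhibitor Serpina1 at 7.68 and 7.79 against 0.13 and 0.12. Transferrin, Tf, kept a measurable level, 3.59 and 4.75 against 9.21 and 9.20 in treated wild type. The exception was Ambp, the precursor of alpha-1-microglobulin and bikunin, which rose from 5.81 and 6.40 to 10.27 and 10.24 (difference 4.15, SE 0.43, adjusted p = 9.8e-05). Its levels in the other 8 libraries were 0 to 5.66. The summed FPKM of the list was 5532.9 and 5875.1 in treated wild type and 1270.3 and 1232.6 under the label, nearly all of the latter from Ambp.

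Apolipoprotein and lipid transport genes fell in 10 of 11 tested cases (median -3.92; 4 of the 5 that passed the filter outside the comparison). Apoa1, the main protein of high-density lipoprotein, was at 6.85 and 7.10 against 0.08 and 0, and Apoc2, the cofactor of lipoprotein lipase, at 3.89 and 3.95 against listed values of 0 in both libraries of the label. Of 11 complement and coagulation genes 8 fell (median -5.25; none of the 3 that passed outside the comparison); without replicate 2 of the label 2 genes of the list were also called higher. Prothrombin, F2, at 8.15 and 7.89 in treated wild type, was at 0 and 0.03 under the label. The fibrinogen chain Fgb was at 6.76 and 6.58 against 0.03 and 0.04 and Fgg at 6.73 and 6.47 against 0 and 0.04. Of the complement genes, Cfi, the protease factor I, fell as well, from 5.42 and 5.28 to 0 and 0. C3, the central complement component, was at 4.09 and 4.06 in treated wild type and at 5.42 and 0.05 under the label, and the C3 convertase subunit Cfb was at 1.45 and 0 in treated wild type and at 4.01 and 0 under the label. Neither was called, and in both the 2 libraries of the label lay far apart.

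In the urea cycle and amino acid breakdown list 8 of 10 fell and 2 rose (median -6.01; 3 fell and 1 rose among the 4 that passed outside the comparison). Tyrosine aminotransferase, Tat, dropped from 8.0 and 7.90 to 0 and 0.10. Carbamoyl phosphate synthetase, Cps1, the entry enzyme of the urea cycle, was at 7.0 and 6.50 against 0.01 and 0, whereas Asl, a later enzyme of the cycle, still stood at 5.80 and 6.51 against 7.73 and 7.68. Arg1, which releases urea from arginine, went the other way, from 1.39 and 1.29 to 4.38 and 3.80 (difference 2.75, adjusted p = 2.27e-05). Of 8 cytochrome P450 and conjugation genes 5 fell and 2 rose, where 22.4% of all tested genes fell and 22.7% rose. The 2 rises in this list and in the urea cycle list were near that share. With only the 4 libraries compared in the fit 4 cytochrome P450 and conjugation genes fell and 0 rose. The glutathione transferase Gsta2 was at 7.53 and 7.70 against 0 and 0, and Gstm1 at 9.53 and 9.75 against 4.38 and 6.54. Cyp1b1, a P450 of steroid and xenobiotic oxidation found mainly outside hepatocytes, rose from 0.47 and 0.29 to 4.29 and 2.52 (adjusted p = 0.00135). That call was lost with only the 4 libraries compared in the fit (limma adjusted p = 0.0626).

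Factors that set hepatocyte identity were low as well. Of 11 liver-enriched transcription factors tested 9 fell and none rose (median -3.62, and 2 rose without replicate 2 of the label; 3 of the 5 that passed outside the comparison fell). The median level of the list was 4.86 and 4.99 in treated wild type and 1.44 and 0.02 under the label. In the 8 libraries outside the comparison it was 0 to 0.48, so by this median treated wild type was the high pair. Summed FPKM had another order, at 1656.8 and 2685.4 in treated wild type and 2672.9 and 2481.5 in untreated wild type. Hnf4a was at 5.22 and 5.13 in treated wild type and listed at 0 in both libraries of the label. Foxa2 and Cebpa had residual levels in replicate 1 only: Foxa2 was at 5.84 and 5.75 against 2.96 and 0 and Cebpa at 5.29 and 5.54 against 1.44 and 0. Cebpb, an acute-phase regulator present in many cell types, fell less, from 10.40 and 11.22 to 9.64 and 9.70 (difference -1.14, adjusted p = 0.00996), a call lost without treated wild-type replicate 2 (adjusted p = 0.0638). Gata4 and Gata6 were not called: Gata4 was at 4.11 and 4.15 against 5.55 and 0.02, and Gata6 at 1.96 and 1.82 against 4.71 and 1.35, in each case with replicate 1 above wild type and replicate 2 below it.

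**Figure D2:**
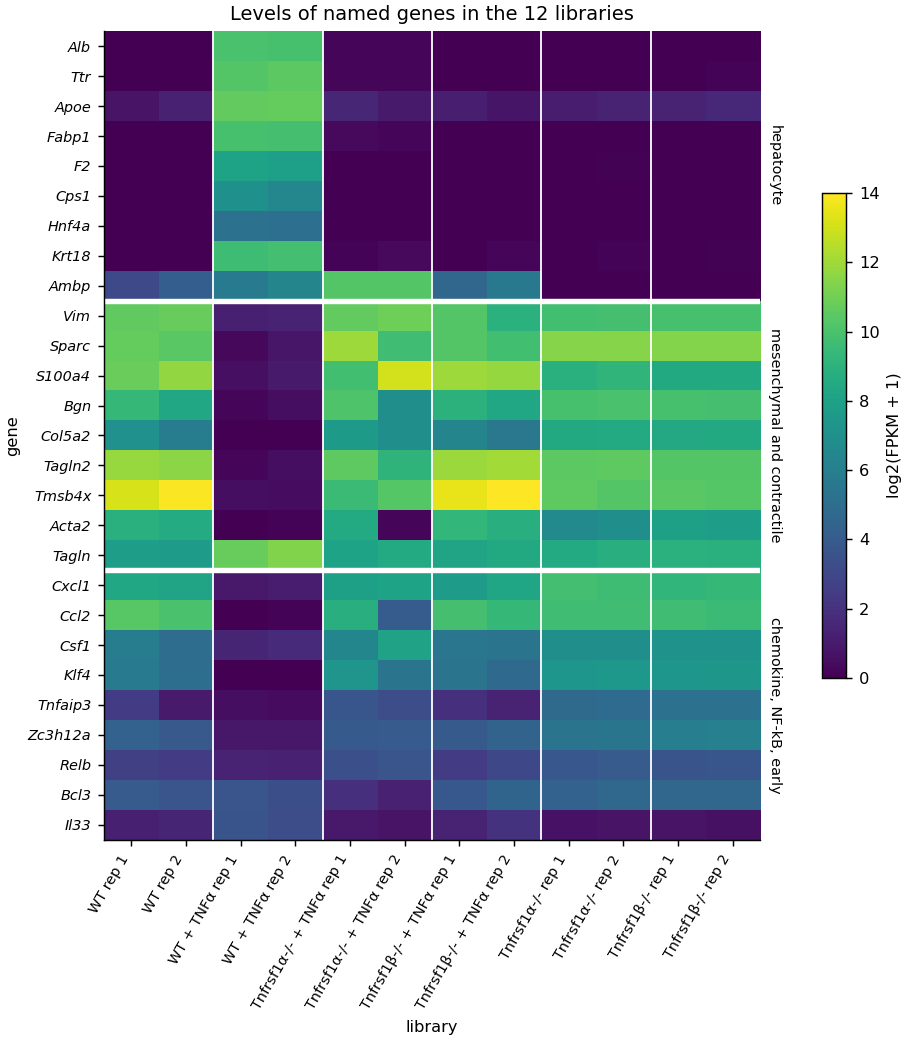
Levels of 27 genes (rows, grouped as hepatocyte, mesenchymal and contractile, and chemokine, NF-kB and early genes) in the 12 libraries (columns), in log2(FPKM + 1) from 0 (dark) to 14 (yellow). Hepatocyte genes other than Ambp are bright in the 2 treated wild-type libraries only, with Alb at 10.01 and 9.92 there, and most mesenchymal genes and Cxcl1 are dark in those 2 libraries and bright in most of the other 10; in treated Tnfrsf1α-/-, Acta2 and Ccl2 differ between the 2 libraries.

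Keratin and junction genes split into those that fell and those that did not pass. Of 16 keratin and junction genes 9 fell and none rose (median -2.37; 4 of 11 fell among those that passed outside the comparison). Krt18, a simple epithelial keratin, was at 9.64 and 9.84 against 0.15 and 0.34, and its partner Krt8 at 9.96 and 10.05 against 6.26 and 0.62, so that replicate 1 kept Krt8 but hardly any Krt18. E-cadherin, Cdh1, fell from 10.71 and 9.98 to 7.26 and 5.57 (difference -3.93, adjusted p = 0.000392). Krt7, a biliary keratin, was at 15.24 and 15.67 in treated wild type and at 14.63 and 15.11 under the label and did not pass. Desmoplakin (Dsp), occludin (Ocln) and plakoglobin (Jup) lay above wild type in replicate 1 and below it in replicate 2; Dsp was at 3.79 and 3.40 against 6.11 and 0. Without replicate 2 of the label 4 genes of this list were higher and 10 lower, and without replicate 1 none was higher and 13 were lower.

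The labelled cell type was checked against its markers. Among 12 tested progenitor and biliary genes 5 fell and 3 rose; of the 7 that passed the filter outside the comparison 1 fell and 3 rose, and without replicate 1 of the label 5 of the 12 fell and 5 rose. In the full fit the 3 of 12 that rose were a share near the 22.7% of all tested genes. Afp, the fetal counterpart of albumin, was at 5.78 and 5.37 in treated wild type against 0 and 0, Epcam, an epithelial adhesion molecule, at 3.33 and 3.06 against 0 and 0, and Lgr5, a receptor of stem and progenitor cells, at 4.75 and 4.45 against 0 and 0.06. In the other 8 libraries, untreated wild type included, Afp and Epcam were listed at 0 and Lgr5 was at 0 to 0.03. These 3 markers were thus near 0 in all libraries but treated wild type, through which alone they passed the filter. Sox9, a factor of biliary and progenitor cells, was present in both groups, at 9.15 and 9.19 in treated wild type and at 9.67 and 9.39 under the label. Tnfrsf12a, the receptor of TWEAK and a growth signal for progenitor cells, rose from 5.49 and 6.08 to 8.61 and 7.72 (difference 2.38, SE 0.33, adjusted p = 0.000549). Of the markers of other cells, 1 of 9 endothelial genes in the table, 2 of 11 macrophage and leukocyte genes and 1 of 8 erythroid genes were tested, and none passed. Their summed FPKM in treated wild type and under the label was 0.0 to 0.0 and 1.1 to 1.3 for endothelial, 16.4 to 18.1 and 27.8 to 50.1 for macrophage and leukocyte, and 2.4 to 2.7 and 0.8 to 1.0 for erythroid genes. In the macrophage list Cd14 was at 3.99 and 4.18 against 5.65 and 3.67 and Cd68 at 0.71 and 0.51 against 0.66 and 4.09.

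Mesenchymal genes were among the largest increases. Vimentin, Vim, the intermediate filament of mesenchymal cells, rose from 1.22 and 1.34 to 10.63 and 10.92 (difference 9.49, SE 0.36, limma adjusted p = 7.96e-08). S100a4, a calcium-binding protein of motile and fibroblast-like cells, was at 0.58 and 1.02 against 9.75 and 13.06 (difference 10.60, adjusted p = 1.97e-05), and the matrix protein Sparc at 0.28 and 0.85 against 11.96 and 9.68 (difference 10.26, adjusted p = 2.03e-06). All 3 were far above wild type in both libraries, with S100a4 higher in replicate 2 and Sparc higher in replicate 1. In the other 8 libraries Vim was at 8.93 to 10.73 and Sparc at 9.79 to 11.46, so that for these genes the treated wild-type libraries were the low pair. Of 11 tested mesenchymal and stellate cell genes 6 rose and 1 fell (median 4.32), and 10 of the 11 also passed the filter outside the comparison. Des, the desmin of stellate and muscle cells, was at 1.33 and 1.34 against 5.95 and 6.45, and Hand2, a transcription factor of stellate cells, was listed at 0 in treated wild type and at 4.52 and 6.34 under the label. Tagln, a smooth muscle actin-binding protein, was the member that fell, from 10.73 and 11.37 to 8.12 and 8.57 (difference -2.70, adjusted p = 5.48e-05). Summed FPKM of the list was 1984.5 and 2868.4 in treated wild type, and 7364.2 and 12046.9 under the label.

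Collagens and other matrix genes did not move as one. Of 26 tested, 11 rose and 4 fell (median 2.30); without replicate 1 of the label the counts were 13 and 8, without replicate 2 they were 17 and 3, and without treated wild-type replicates 1 and 2 they were 8 and 2, and 7 and 3. Among all tested genes 22.7% rose and 22.4% fell. With only the 4 libraries compared in the fit 6 matrix genes rose and 0 fell. Bgn, a small proteoglycan, was at 0.26 and 0.51 against 10.15 and 6.99 (difference 8.19, adjusted p = 8.59e-05), and the fibrillar collagen Col5a1 was at 0 and 0.02 against 6.76 and 5.05. Its partner chain Col5a2 was at 0.01 and 0.02 against 7.64 and 6.99. Fibronectin, Fn1, fell from 14.05 and 13.75 to 12.73 and 12.04 (difference -1.51, adjusted p = 0.00119), and so did the basement membrane collagen Col4a1, from 10.80 and 10.67 to 9.32 and 8.41. Col1a1, the main collagen of scar tissue, fell from 7.98 and 7.83 to 7.19 and 6.14 (difference -1.24, adjusted p = 0.0236), a call lost without replicate 2 of the label (adjusted p = 0.0784) and without treated wild-type replicate 1 (0.116) or 2 (0.0917). Other members were present in 1 of the 2 libraries: Fbln2 was at 7.13 and 0.03, Nid1 at 6.85 and 0, Col6a1 at 0.57 and 7.02 and Thbs2 at 0 and 3.88, all listed at 0 or below 0.10 in treated wild type.

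Contractile and actin-binding genes rose in 10 of 15 tested cases and fell in 1, with all 15 also past the filter outside the comparison (median 2.31; 6 and 1 without treated wild-type replicate 2, and a median of 1.52 without replicate 1 of the label). Tmsb4x, the actin-sequestering thymosin beta 4, rose from 0.51 and 0.46 to 9.53 and 10.32 (difference 9.44, SE 0.39, adjusted p = 1.57e-07). Tagln2, a relative of Tagln, went the opposite way from it, from 0.18 and 0.51 to 10.55 and 9.09 (difference 9.47, adjusted p = 1.7e-07). In the 8 libraries outside the comparison Tmsb4x was at 10.24 to 14.52 and Tagln2 at 10.26 to 12.07. The median level of the list was 4.66 and 4.56 in treated wild type and 8.52 to 9.23 in all other libraries. Treated wild type was thus the low pair of the series. The cytoplasmic actin Actg1 rose from 8.24 and 8.36 to 9.12 and 9.36, while Actb, at 11.24 and 11.24 in treated wild type and 11.59 and 11.38 under the label, did not pass. Among matrix proteases and inhibitors 7 of 14 rose and 2 fell, against 4 and 0 without treated wild-type replicate 1. Timp2, an inhibitor of metalloproteinases, was at 3.60 and 3.87 against 10.46 and 8.51 (difference 5.75, adjusted p = 3.42e-05), and Plaur, the urokinase receptor, at 2.22 and 2.35 against 5.66 and 6.10 (difference 3.59, adjusted p = 5.15e-06). The tissue plasminogen activator gene Plat rose from 3.14 and 3.19 to 7.56 and 5.46 (difference 3.34, adjusted p = 0.00166). Its call was lost with only the 4 libraries compared in the fit (limma adjusted p = 0.0665).

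Transcription factors linked to epithelial to mesenchymal transition rose in 7 of 9 tested cases and none fell (median 2.18). With only the 4 libraries compared in the fit 1 of the 9 passed, and without treated wild-type replicate 1 or 2 the counts were 5 and 4. Zeb1 was already present in treated wild type, at 9.17 and 8.55, and reached 10.54 and 10.48 (difference 1.65, adjusted p = 0.00462). Snai1 was at 0.32 and 0.23 against 1.97 and 4.36 (difference 2.89, adjusted p = 0.00593). Snai2, Zeb2, Twist1 and Twist2 were listed at 0 in treated wild type. Under the label Snai2 was at 1.32 and 2.67, Zeb2 at 2.88 and 1.48, Twist1 at 1.63 and 5.60 and Twist2 at 2.46 and 8.16, higher in replicate 2 for all but Zeb2. The calls of Twist1 and Twist2 were lost without treated wild-type replicate 1 (adjusted p = 0.0833 and 0.0784) or replicate 2 (adjusted p = 0.0911 and 0.086). N-cadherin, Cdh2, the mesenchymal partner of E-cadherin kept in the same list, was high in treated wild type, at 10.82 and 10.41, and slightly higher under the label, at 11.30 and 11.25 (difference 0.66, adjusted p = 0.0176), a call lost without treated wild-type replicate 2 (adjusted p = 0.105).

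The pathway named by the label was described from its receptors to its targets. Of 20 TNF receptor, adaptor and death signalling genes 8 rose and 2 fell (median 0.67); without treated wild-type replicate 2 the counts were 5 and 1, and without replicate 2 of the label they were 10 and 6. For all tested genes the shares were 22.7% higher and 22.4% lower. With only the 4 libraries compared in the fit 4 genes of the list rose and 1 fell. Fas, a death receptor of the TNF receptor family, rose from 0.24 and 0.31 to 3.73 and 2.65 (difference 2.91, SE 0.32, limma adjusted p = 0.000131), while Tnfrsf10b, the TRAIL death receptor, was at 3.76 and 3.76 in treated wild type and listed at 0 in both libraries of the label. The adaptor Traf3 rose from 1.25 and 1.25 to 2.85 and 2.88, and Traf5 from 1.24 and 1.27 to 3.64 and 3.97. Traf2 fell from 5.43 and 5.67 to 4.79 and 4.67 (difference -0.82, adjusted p = 0.00745). Tradd, the death domain adaptor that TNFR1 recruits, was at 5.03 and 5.13 against 4.13 and 5.59, and Fadd at 4.07 and 4.09 against 3.72 and 3.34; neither passed. Ripk1, the kinase of the receptor complex, rose from 2.24 and 1.74 to 3.62 and 2.97. The calls of Traf2 and Ripk1 were lost without treated wild-type replicate 2 (adjusted p = 0.052 and 0.0697). The caspase inhibitor gene Birc2 rose from 1.67 and 1.47 to 3.33 and 3.09 (difference 1.64, adjusted p = 0.000388). Birc3, its close relative and an NF-kB target, was at 1.79 and 1.53 against 0.32 and 4.74, below wild type in replicate 1 and above it in replicate 2.

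NF-kB subunits and feedback genes rose in 7 of 22 cases and fell in 2 (median 0.75, and 0.48 without replicate 1 of the label), where 22.7% and 22.4% of all tested genes did; without replicate 2 of the label 12 rose and 5 fell, and without treated wild-type replicate 2 the counts were 4 and 1. Tnfaip3, the deubiquitinase A20 that shuts the pathway off, rose from 0.49 and 0.39 to 3.76 and 3.33 (difference 3.11, SE 0.42, adjusted p = 0.000542). Zc3h12a, the ribonuclease Regnase-1 that degrades cytokine transcripts, was at 0.93 and 0.92 against 3.95 and 4.0 (difference 3.05, adjusted p = 1.29e-05), and Nfkbiz, a nuclear IkB protein, at 0.24 and 0.17 against 3.96 and 1.95 (difference 2.75, adjusted p = 0.00756; 0.057 without treated wild-type replicate 2). The subunit Relb rose from 1.38 and 1.30 to 3.40 and 3.69 (difference 2.20, adjusted p = 0.000162) and the kinase Ikbkb from 2.15 and 1.95 to 4.21 and 4.33, whereas Bcl3, another nuclear IkB protein, fell from 3.70 and 3.36 to 1.88 and 1.28 (difference -1.95, adjusted p = 0.00108). Nfkbia, the IkB protein whose transcript is a usual early readout of NF-kB, was at 5.76 and 5.86 against 5.08 and 7.0, with the wild-type values between the 2 libraries of the label. Rela was at 5.71 and 5.79 against 5.07 and 5.42 and did not pass either. In the untreated libraries of the label Tnfaip3 was at 4.84 and 4.88 and Zc3h12a at 5.37 and 5.42, above the treated levels.

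Chemokine and cytokine genes rose in 9 of 18 tested cases and fell in 1 (median 1.91); without replicate 1 of the label the counts were 7 and 3 (median 0.66), and without replicate 2 they were 15 and 1 (median 2.15). Cxcl1, a neutrophil chemokine, was at 0.98 and 1.15 in treated wild type and at 7.97 and 8.14 under the label (difference 6.99, SE 0.21, adjusted p = 1.98e-08). Csf1, the growth factor of macrophages, was at 1.46 and 1.67 against 6.41 and 8.04 (difference 5.67, adjusted p = 2.47e-05). Ccl2, the monocyte chemokine, reached 8.80 and 4.07 from 0 and 0.14 (difference 6.37, adjusted p = 0.00264), a call lost with only the 4 libraries compared in the fit. Cxcl10 rose from 4.45 and 4.63 to 6.96 and 6.82. The alarmin Il33 fell from 3.62 and 3.30 to 0.96 and 0.74 (difference -2.61, adjusted p = 6.01e-05). Ccl7 and Csf2 were present in replicate 1 only, at 6.96 and 5.35, and Cxcl3 mainly in replicate 2, at 6.39 against 0.66 in replicate 1. In the untreated libraries of the label Cxcl1 was at 9.79 and 9.66 and Ccl2 at 9.73 and 9.69, at or above the treated levels. Summed FPKM of the list was 175.2 and 190.5 in treated wild type and 1569.3 and 1068.5 under the treated label. It was 2254.8 and 1986.5 in untreated wild type and 1580.4 and 1386.2 in the treated libraries labelled Tnfrsf1β-/-. By this sum treated wild type was the low pair of the series.

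Promoters of 3 genes of these lists that rose are shown because each holds a match to an NF-kB site in its last 200 bases before the start. The letters searched were GGGA, then any base, then TTTCC, on both strands, and the match is in capitals; the sequences are from RefSeq on GRCr8 and written on the gene's strand. Cxcl1 lies on the minus strand at chr14:17479322-17479521 with its match 84 to 75 bases before the start, Tnfaip3 on the minus strand at chr1:15543980-15544179 with an opposite-strand match at 67 to 58, and Nfkbiz on the plus strand at chr11:58251521-58251720 with its match at 13 to 4.
Cxcl1: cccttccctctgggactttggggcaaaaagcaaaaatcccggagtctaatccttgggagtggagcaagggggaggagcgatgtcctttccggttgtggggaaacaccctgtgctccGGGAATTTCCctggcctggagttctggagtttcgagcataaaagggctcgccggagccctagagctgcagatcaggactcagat
Tnfaip3: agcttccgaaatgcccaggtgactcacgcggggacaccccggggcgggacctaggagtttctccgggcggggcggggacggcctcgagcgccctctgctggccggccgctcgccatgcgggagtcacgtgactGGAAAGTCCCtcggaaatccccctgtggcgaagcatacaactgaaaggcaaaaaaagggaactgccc
Nfkbiz: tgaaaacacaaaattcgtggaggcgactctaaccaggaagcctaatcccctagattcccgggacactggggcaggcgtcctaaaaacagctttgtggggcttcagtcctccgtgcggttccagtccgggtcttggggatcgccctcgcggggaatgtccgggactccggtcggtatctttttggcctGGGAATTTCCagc
In the window from 250 bases before to 50 after the start the site was in 0.715% of promoters of genes called higher, 0.27% of those called lower and 0.438% of all tested genes with a single promoter. Of the called-higher genes of the NF-kB and chemokine lists 10 had a single RefSeq promoter, and 4 of these (40%) held the site. The group was formed from the calls and is given with no test. The AP-1 site was in 30% of these 10 against 4.92% of tested genes and the TATA box in 20% against 6.3%. The TEAD and NRF2 motifs also had larger shares, and the CCAAT box, HNF1 and HNF4 motifs smaller ones. A match of these letters does not show that the factor binds there.

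Interferon-stimulated and antigen processing genes rose in 8 of 22 cases and fell in 3 (median 1.21); without replicate 2 of the label 15 rose and 4 fell (median 2.12), and without replicate 1 the counts were 7 and 5 (median 0.12). Without treated wild-type replicate 1 or 2 they were 7 and 1. Over all tested genes 22.7% rose and 22.4% fell. With only the 4 libraries compared in the fit 3 genes of the list rose and 1 fell. Usp18, which restrains interferon receptor signalling, was at 0.36 and 0.47 against 6.94 and 4.17 (difference 5.14, adjusted p = 0.000529), and Irf7, a regulator of interferon genes, at 3.48 and 3.59 against 7.47 and 6.02 (difference 3.21, adjusted p = 0.000355). Tap2, a peptide transporter of antigen presentation, fell from 10.82 and 10.71 to 9.84 and 9.64 (difference -1.02, adjusted p = 0.00083). Rsad2 and Ifit3 lay above wild type in replicate 1, at 4.72 and 4.38, but in replicate 2 they were at 0.80 and 1.49. In treated wild type Rsad2 was at 1.01 and 1.06 and Ifit3 at 1.14 and 1.19.

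Immediate early genes, which respond within minutes to an hour of a stimulus, rose in 9 of 23 cases and fell in 2 (median 0.66); without treated wild-type replicate 1 the counts were 5 and 2, and without replicate 1 of the label they were 11 and 4 (median 0.39). The shares of all tested genes were 22.7% higher and 22.4% lower. With only the 4 libraries compared in the fit 3 immediate early genes rose and 1 fell. Klf4 was at 0.01 and 0 in treated wild type and at 7.30 and 5.39 under the label, and the feedback inhibitor Spry2 was listed at 0 in treated wild type against 5.19 and 4.70. Spry4 rose from 7.81 and 7.44 to 10.43 and 10.46 (difference 2.81, SE 0.25, adjusted p = 3.76e-05). Jun, a subunit of AP-1, was at 3.60 and 3.88 against 5.07 and 6.82 (difference 2.21, adjusted p = 0.00632; 0.0511 without treated wild-type replicate 1) and Ier3 at 5.39 and 5.42 against 7.01 and 8.37 (difference 2.29, adjusted p = 0.00154). Dusp1, a phosphatase of MAP kinases, fell from 11.21 and 11.45 to 9.98 and 10.18 (difference -1.25, adjusted p = 0.00661; 0.0558 without treated wild-type replicate 2). Fos was low in all 4 libraries, at 1.22 and 1.37 in treated wild type and 1.30 and 0.96 under the label, and Egr1 was at 6.32 and 6.69 against 7.40 and 6.66. Neither passed.

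The genes of YAP and its relative TAZ (Wwtr1) both stood above treated wild type under the label, and Wwtr1 passed the test. Yap1 was at 4.53 and 4.42 in treated wild type and at 5.80 and 5.61 under the label, with no overlap, but did not pass (difference 1.23, SE 0.65, limma adjusted p = 0.15; 0.0388 with only the 4 libraries compared in the fit). Wwtr1 was at 3.65 and 3.55 against 5.0 and 4.79 (difference 1.29, SE 0.23, adjusted p = 0.00227; 0.0646 with array weights). Of 20 Hippo pathway components, which include both, 13 rose and 1 fell (median 1.22); without treated wild-type replicates 1 and 2 the counts were 7 and 1, and 4 and 1. Stk3, a kinase at the top of the cascade, rose from 2.40 and 2.21 to 4.36 and 3.59 (difference 1.67, adjusted p = 0.00232). Lats2, a kinase that phosphorylates YAP, rose from 1.87 and 1.61 to 5.23 and 2.90, and the DNA-binding partner Tead1 from 1.68 and 1.45 to 5.44 and 3.24. Both calls were lost without treated wild-type replicate 1 (adjusted p = 0.0822 for Lats2 and 0.0536 for Tead1) or 2 (0.119 and 0.075), and that of Lats2 also without replicate 1 of the label (0.0533). Tead2 fell from 5.25 and 5.39 to 3.34 and 2.74 (difference -2.28, adjusted p = 0.000421). Vgll3, a cofactor of the TEAD proteins, was listed at 0 in treated wild type and at 5.31 and 3.40 under the label.

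Targets of YAP and TAZ rose in 10 of 22 cases and fell in 3 (median 1.54). Without replicate 1 of the label the median was 0.53, and without treated wild-type replicate 1 the counts were 8 and 1. Of all tested genes 22.7% rose and 22.4% fell. With only the 4 libraries compared in the fit 6 targets rose and 1 fell. Myof, a membrane repair protein, rose from 0.27 and 0.22 to 7.27 and 5.60 (difference 6.19, SE 0.50, adjusted p = 2.06e-05). Ankrd1, a nuclear ankyrin repeat protein, was high in both groups and higher under the label, 13.37 and 13.45 against 11.04 and 11.04 (difference 2.37, adjusted p = 0.00242), and the ectonucleotidase Nt5e was at 11.79 and 11.81 against 10.47 and 10.15 (difference 1.49, adjusted p = 0.000185). Ctgf, a matrix-associated target often used as a readout of YAP, was at 10.71 and 11.13 against 10.27 and 10.48 and did not pass, and Cyr61 was at 3.21 and 3.46 against 7.19 and 3.43, higher in replicate 1 alone. Igfbp3, an IGF-binding protein of the circulation, fell from 13.45 and 13.44 to 11.10 and 10.79 (difference -2.50, adjusted p = 5.94e-06).

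The gene Hnrnpk was at 11.41 and 10.33 in treated wild type and at 12.70 and 10.62 under the label, and its libraries spread by over 1 log2 unit within both groups (difference 0.79, SE 0.62, adjusted p = 0.32). Without replicate 1 of the label the difference was -0.25 (adjusted p = 0.682), and without replicate 2 it was 1.83 (0.00674). Of 20 hnRNP and poly(C)-binding protein genes 1 was called higher and 2 lower, fewer than the 22.7% and 22.4% of all tested genes (median -0.10). Without replicate 1 of the label 1 rose and 4 fell (median -0.30), and without replicate 2 the counts were 4 and 2 (median 0.08). Hnrnpc fell from 7.46 and 7.41 to 5.96 and 6.10 (difference -1.41, adjusted p = 0.000334) and Hnrnpab from 8.24 and 8.32 to 7.71 and 7.13 (difference -0.86, adjusted p = 0.0119; 0.0687 without treated wild-type replicate 2). Pcbp3, a poly(C)-binding protein related to hnRNPK, rose from 0.60 and 0.52 to 4.31 and 5.0 (difference 4.10, adjusted p = 4.54e-06).

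TGF-beta and IGF signalling genes rose in 9 of 21 tested cases and fell in 1 (median 1.33); without replicate 2 of the label the counts were 16 and 2, and without replicate 1 they were 9 and 3 (median 0.61). The ligands Tgfb1 and Inhba rose, from 3.02 and 3.08 to 5.54 and 5.29 (difference 2.36, adjusted p = 1.34e-05) and from 4.93 and 4.11 to 7.68 and 7.31 (difference 2.97, adjusted p = 0.000191). Of the receptors, Tgfbr1 rose from 1.06 and 0.83 to 2.75 and 3.87, and Tgfbr3 and Igf1r were listed at 0 in treated wild type. Under the label Tgfbr3 was at 3.13 and 3.27 and Igf1r at 3.23 and 2.25. The signal transducer Smad3 rose from 2.59 and 2.29 to 4.37 and 4.0. Bmp4, Igfbp2 and Igfbp6 were above wild type in replicate 1 and at 0 in replicate 2: Igfbp6 was at 2.92 and 2.82 against 7.52 and 0.

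Cell division genes were called in both directions, where 22.7% of all tested genes were called higher and 22.4% lower. The 4 rises among 22 DNA replication genes were below that share of all tested genes. Of 22 DNA replication genes 8 fell and 4 rose (median -0.08), and of 21 mitosis genes 10 fell and 7 rose (median -0.56; 9 and 3 without treated wild-type replicate 2, and a median of -1.11 without replicate 2 of the label). The replicative helicase subunits Mcm5 and Mcm7 fell: Mcm5 was at 11.19 and 11.55 against 9.96 and 9.98 (difference -1.39, SE 0.23, adjusted p = 0.00157). Uhrf1, which guides maintenance of DNA methylation, was at 10.57 and 10.60 against 8.25 and 8.49 (difference -2.22, adjusted p = 0.00118), and thymidylate synthase, Tyms, at 11.92 and 11.87 against 10.74 and 10.96 (difference -1.04, adjusted p = 0.00127). The mitotic cyclin Ccnb1 fell from 12.49 and 12.65 to 10.86 and 10.84 (difference -1.72, adjusted p = 0.000194), the kinase Plk1 from 11.18 and 11.76 to 9.85 and 9.68 and Cenpa, the histone of centromeres, from 8.84 and 8.98 to 5.65 and 6.61 (difference -2.78, adjusted p = 0.000144). The calls of Mcm5, Mcm7, Tyms and Plk1 were lost with array weights (limma adjusted p = 0.0739, 0.0749, 0.136 and 0.0936). With these weights 2 DNA replication genes rose and 2 fell, and 2 mitosis genes rose and 5 fell. Mki67, the gene of the proliferation marker Ki-67, rose from 2.25 and 1.97 to 5.38 and 4.17 (difference 2.67, adjusted p = 0.00046), as did Cenpf, from 0.75 and 0.74 to 3.32 and 2.46, and Pola1, a subunit of DNA polymerase alpha, from 1.02 and 0.95 to 3.90 and 2.76 (difference 2.35, adjusted p = 0.000771).

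These groups of cell division genes differed in level. Of the genes named above that fell, the lowest in treated wild type was Cenpa, at 8.84 and 8.98, and the highest Mcm7, at 12.73 and 13.06, and of those that rose Cenpf was the lowest there, at 0.75 and 0.74, and Mki67 the highest, at 2.25 and 1.97. In the untreated libraries of the label Mcm5 was at 4.87 and 5.02, Ccnb1 at 6.12 and 6.17 and Mki67 at 5.48 and 5.35. Cdk1 was at 7.30 and 7.41 in treated wild type against 7.29 and 7.52 under the label, and Mcm3 at 6.49 and 6.46 against 6.48 and 6.47. Neither passed.

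Genes of the NRF2 antioxidant response fell in 9 of 17 cases and rose in 1, with a median of -1.32; without replicate 2 of the label 14 fell and 2 rose (median -1.97), and without treated wild-type replicate 2 the counts were 6 and 0. Akr1b10, an aldo-keto reductase, was the highest of them, at 16.62 and 16.77 in treated wild type and 12.28 and 12.49 under the label (difference -4.31, SE 0.22, limma adjusted p = 7.94e-07). The aldo-keto reductases are close paralogues, so reads may be shared between them and their values are uncertain. Gclm, a subunit of the enzyme that starts glutathione synthesis, fell from 6.58 and 6.44 to 4.56 and 4.38 (difference -2.04, adjusted p = 0.000744), and Osgin1, an oxidative stress gene, from 6.50 and 6.71 to 2.77 and 3.65 (difference -3.40, adjusted p = 3.18e-05). The microsomal glutathione transferase Mgst1 fell from 8.97 and 9.06 to 7.05 and 4.91. Nqo1, a quinone reductase and a common readout of NRF2, stood apart at 6.41 and 6.52 against 7.26 and 11.36, far above wild type in replicate 2 (difference 2.84, adjusted p = 0.0492). That call was lost without treated wild-type replicate 1 or 2 (adjusted p = 0.173 and 0.17), which leaves no gene of the list called higher. Hmox1 was at 7.74 and 7.79 against 5.61 and 7.79, low in replicate 1 and level with wild type in replicate 2.

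In metabolic and stress genes the 2 libraries of the label parted. Of 23 cholesterol and fatty acid synthesis genes 6 fell and 2 rose, a share of falls near the 22.4% of all tested genes; without replicate 1 of the label 17 fell and 2 rose, and without replicate 2 the counts were 5 and 8; without treated wild-type replicate 1 they were 2 and 2, and without its replicate 2 they were 3 and 2. The list's median against treated wild type was 0.00 in replicate 1 and -1.88 in replicate 2, and 19 of the 23 genes were higher in replicate 1, against 53.7% of all tested genes. Hmgcs1, an early enzyme of the pathway, was at 6.95 and 6.49 in treated wild type and at 5.95 and 2.94 under the label, the squalene enzyme Sqle at 4.89 and 4.58 against 5.77 and 3.15, and the desaturase Scd at 6.31 and 5.92 against 5.56 and 0. Dhcr7, the last enzyme of cholesterol synthesis, fell in both libraries, from 6.43 and 6.29 to 3.53 and 2.43 (difference -3.38, adjusted p = 0.000117), and Mvd, a mevalonate pathway enzyme, rose from 9.24 and 9.81 to 11.56 and 11.61 (difference 2.06, adjusted p = 0.000425). The amino acid stress genes had the same order of libraries: of 21 unfolded protein and amino acid stress genes 3 fell and 2 rose, with 10 lower and 2 higher without replicate 1 and 4 lower and 8 higher without replicate 2, and 1 lower and 2 higher without either treated wild-type library. The 3 falls and 2 rises of the full fit were below the shares of all tested genes, 22.4% and 22.7%. Asparagine synthetase, Asns, was at 6.92 and 6.92 against 6.71 and 4.31, and Trib3 at 5.77 and 5.82 against 6.74 and 4.07. Ddit3, the transcription factor CHOP, rose in both libraries, from 3.84 and 4.12 to 7.01 and 5.77 (difference 2.41, adjusted p = 0.00571).

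Glycolysis and hypoxia genes had the opposite order. Of 21 tested, 5 rose, a share near the 22.7% of all tested genes, and 2 fell; without replicate 1 of the label 9 rose and 1 fell, and without replicate 2 the counts were 5 and 11, and without either treated wild-type library they were 4 and 0. The list's median against treated wild type was -0.80 in replicate 1 and 0.63 in replicate 2, and 5 of the 21 genes were higher in replicate 1. Lactate dehydrogenase, Ldha, was at 10.29 and 10.20 in treated wild type and at 9.17 and 11.42 under the label, the kinase Pgk1 at 9.71 and 9.66 against 8.90 and 11.37, and Bnip3, a hypoxia-induced mitophagy receptor, at 7.39 and 6.64 against 3.13 and 6.97. In Ldha and Pgk1 the 2 libraries lay on either side of wild type. Pfkp, the platelet form of phosphofructokinase, was at 0.09 and 0.13 against 5.18 and 5.45 in both libraries (difference 5.21, SE 0.31, adjusted p = 2.27e-06), and hexokinase 1, Hk1, at 3.51 and 3.39 against 5.78 and 5.52 (difference 2.20, adjusted p = 0.00263). The liver form Pfkl was at 8.07 and 7.93 against 5.01 and 7.31 (difference -1.84, adjusted p = 0.038), a call lost without replicate 1 of the label (adjusted p = 0.0939) and without treated wild-type replicate 1 (0.151) or 2 (0.138).

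**Figure D3:**
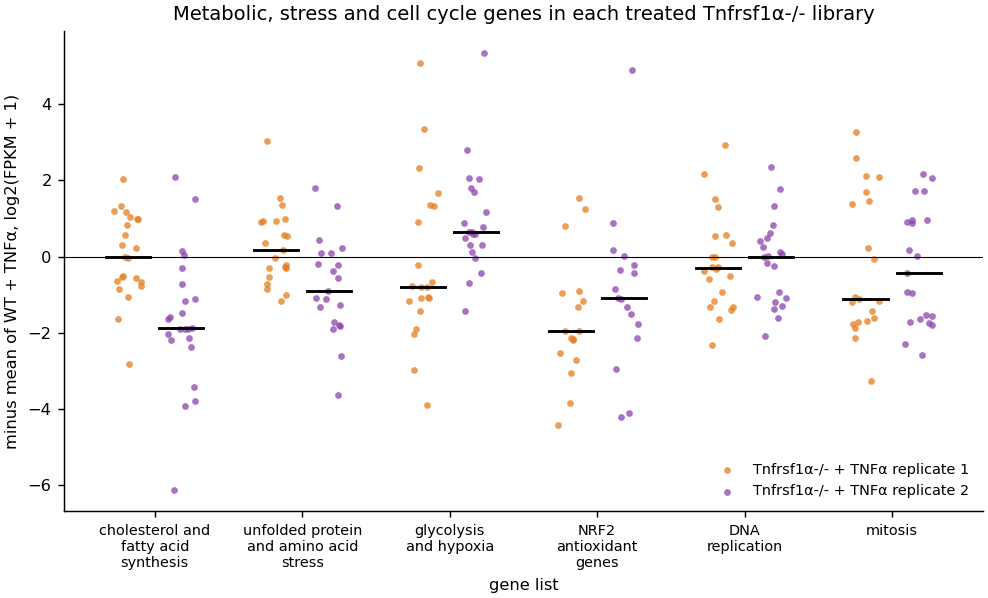
Each point is a tested gene of 1 of 6 lists, plotted as its level in treated Tnfrsf1α-/- replicate 1 (orange) or replicate 2 (purple) minus the mean of the 2 treated wild-type libraries, in log2(FPKM + 1), with black bars at the medians; the side-to-side position within a column is random. Replicate 2 is lower than replicate 1 for cholesterol and fatty acid synthesis (medians 0.00 and -1.88) and for unfolded protein and amino acid stress (0.17 and -0.91), and higher for glycolysis and hypoxia (-0.80 and 0.63).

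Outside the lists, the 15 largest falls held genes of several other kinds. Ceacam6, a cell surface adhesion protein, was at 14.81 and 14.64 in treated wild type and listed at 0 in both libraries of the label and in the other 8 libraries (limma adjusted p = 1.17e-09). Sox2, a pluripotency and progenitor factor, was at 9.90 and 9.80 against 0 and 0, and Sfrp1, a secreted Wnt inhibitor, at 10.22 and 10.04 against 0 and 0. Tm4sf20, a membrane protein, was at 10.78 and 11.04 against 0 and 0, Maged1 at 11.32 and 11.52 against 2.42 and 0 and Srgn, a proteoglycan of secretory granules, at 11.61 and 11.80 against 3.28 and 2.19. Sox2 and Sfrp1 were also listed at 0 in the other 8 libraries. Igfbp1, a liver-made carrier of insulin-like growth factors, fell from 9.76 and 9.49 to 0.14 and 0.17, and the glycosyltransferases Galnt14, at 9.67 and 10.31 in treated wild type, and St6gal2, at 9.77 and 8.54, were listed at 0 in both libraries of the label. Ceacam6, Sox2, Sfrp1, Igfbp1 and St6gal2 passed the filter on low values only through treated wild type. A difference was thus built into their selection, and the small p-value of Ceacam6 adds no support.

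Among the 15 largest rises outside the lists were membrane and secreted proteins. Anxa1, an anti-inflammatory annexin, was at 0.02 and 0.59 against 10.10 and 8.60 (difference 9.04, SE 0.52, limma adjusted p = 1.81e-06), and Cav1, the coat protein of caveolae, at 0 and 0.05 against 7.94 and 8.19 (difference 8.04, adjusted p = 1.26e-08). Gja1, the gap junction protein connexin 43, rose from 0.05 and 0.09 to 7.81 and 8.33 (difference 8.0), Serpinh1, a collagen chaperone, from 1.36 and 1.41 to 10.41 and 9.14 (difference 8.39), and the protease inhibitor Cst3 from 0.52 and 0.89 to 9.38 and 9.58 (difference 8.78). Akr1b1, the aldose reductase, was at 0.33 and 0.61 against 8.68 and 8.50 (difference 8.12), opposite in direction to its relative Akr1b10. The prion protein gene Prnp rose from 0.07 and 0.20 to 9.24 and 7.01, and the membrane protein Emp1 from 0.50 and 0.52 to 8.86 and 8.07. Anxa1 was at 9.04 to 10.29 in the 8 libraries outside the comparison. Cav1 was at 6.13 to 8.82 there, Gja1 at 6.02 to 7.55 and Cst3 at 7.31 to 10.62. For these genes treated wild type was the low pair of the series.

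A separate description, with no test, covers the genes with the largest gap between the 2 treated libraries of the label. Higher in replicate 1 were elastin (Eln, 11.30 and 0.49), the urothelial and mesothelial protein Upk3b (9.66 and 0.32), P-cadherin (Cdh3, 8.98 and 0.15), the tetraspanin Tspan8 (9.40 and 0.81), the Wnt modulator Sfrp2 (8.57 and 0.03), the basal keratin Krt14 (8.61 and 0.17), smooth muscle actin (Acta2, 8.54 and 0.26) and the matrix Gla protein gene Mgp (8.13 and 0). The symbol NEWGENE_621351, which has 2 lines in the table, was at 8.91 and 8.89 in replicate 1 on these lines and listed at 0 in replicate 2. All of these were near 0 in replicate 2. Higher in replicate 2 were the stromelysins Mmp3 (0.32 and 11.49) and Mmp10 (0.26 and 9.73), the retinoic acid binding protein Crabp1 (0.58 and 11.34), the prostaglandin enzymes Ptgr1 (0.65 and 9.56) and Ptges (0.21 and 8.09), the mesenchymal homeobox genes Prrx1 (0.16 and 7.02) and Prrx2 (0.75 and 8.14), the integrin Itgb4 (0.80 and 7.45), Lect2 (0.30 and 7.24) and Gngt2 (0.57 and 7.31). In treated wild type all were under 1 except Upk3b (2.39 and 2.43), Cdh3 (4.02 and 3.77), Ptgr1 (6.48 and 6.70) and Itgb4 (3.18 and 3.19). The untreated libraries of the label sided with replicate 1: their mean was nearer to it in 716 of the 764 genes (93.7%) over 2 log2 units higher in replicate 1, and in 451 of the 467 genes (96.6%) over 2 units higher in replicate 2. This was not limited to the label: the untreated libraries labelled Tnfrsf1β-/- were nearer replicate 1 in 711 (93.1%) and 454 (97.2%) of these genes, and untreated wild type in 401 (52.5%) and 404 (86.5%). Eln was at 11.64 and 11.88 and Krt14 at 9.56 and 9.83 in the untreated libraries, and Mmp3 at 0.07 and 0.07.

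**Figure D4:**
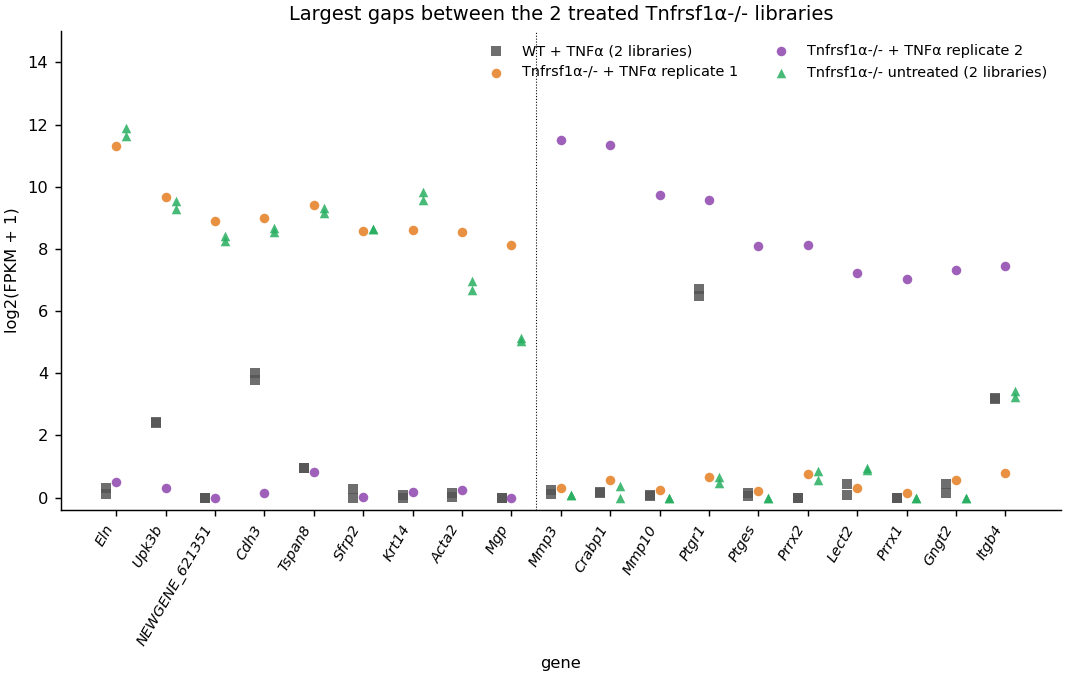
Levels in log2(FPKM + 1) of the genes with the largest gap between the 2 treated Tnfrsf1α-/- libraries, higher in replicate 1 left of the dotted line and in replicate 2 right of it (9 and 10 symbols), with treated wild type as grey squares, replicate 1 orange, replicate 2 purple and the untreated libraries of the label as green triangles. The green triangles stay near the orange points for all genes but Mgp, Acta2 and Itgb4, and Mmp3 stands at 11.49 in replicate 2 alone.

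Whether the genotype difference depended on treatment was tested with the interaction of genotype and TNFα, (Tnfrsf1α-/- minus wild type, treated) minus (the same, untreated). It was higher with TNFα in 1522 genes (12.8%) and lower in 2605 (22.0%), with a median over all tested genes of -0.44; after median-ratio scaling, which removes that shift, the counts were 2066 and 1867, and quantile normalization gave 1843 and 2000. Without replicate 1 of the treated label 2527 genes were higher and 4598 lower, and without treated wild-type replicate 1 the counts were 976 and 1416. Total FPKM was 469055 and 472935 in the untreated libraries of the label against 1071530 and 1231671 in untreated wild type, and its part in the interaction was not tested. Alb was listed at 0 in the untreated libraries of both genotypes and was high with TNFα in wild type alone (limma adjusted p of the interaction = 3.27e-08). Akr1b1 went from 9.84 and 10.14 in untreated wild type to 0.33 and 0.61 in treated wild type, while under the label it was at 8.54 and 8.57 untreated and 8.68 and 8.50 treated (interaction 9.55, adjusted p = 3.83e-08). Nt5e was at 9.20 and 9.16 in untreated wild type and at 0.70 and 0.56 untreated under the label, whereas with TNFα it was at 10.47 and 10.15 in wild type and at 11.79 and 11.81 under the label (interaction 10.04, adjusted p = 3.27e-08). For Nt5e the larger part of the interaction lay in the untreated libraries, as its treated levels differed by 1.49.

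The treated libraries labelled Tnfrsf1α-/- were also set directly against the treated libraries labelled Tnfrsf1β-/-, which avoids the wild-type libraries. In that comparison 4085 genes (34.4%) were higher and 1297 (10.9%) lower under the label Tnfrsf1α-/-, with a median over all tested genes of 0.60. Of the calls 75.9% were higher, against 41.5% with median-ratio scaling and 42.1% with quantile normalization. With only the 4 libraries compared in the fit 337 genes were higher and 45 lower, and without treated Tnfrsf1β-/- replicate 2 the counts were 1583 and 604. Asph, an oxygenase of calcium handling, was at 14.24 and 13.95 under the label Tnfrsf1α-/-, at 1.45 and 1.11 under Tnfrsf1β-/- and at 13.79 and 13.32 in treated wild type (difference between the knockout labels 12.81, SE 0.21, limma adjusted p = 1.02e-08). The alkaline phosphatase gene Alpp was at 12.32 and 12.47 under the label Tnfrsf1α-/- and at 12.52 and 12.37 in treated wild type, and Cdcp1, a surface protein, at 10.62 and 10.35 and at 10.57 and 10.35, while both were listed at 0 in the treated libraries labelled Tnfrsf1β-/- (adjusted p = 3.54e-09 and 1.25e-08). Sox17, an endoderm factor, was listed at 0 in both treated libraries labelled Tnfrsf1α-/- and was at 8.55 and 8.39 under Tnfrsf1β-/- (adjusted p = 2.53e-07). Tap2, at 12.06 and 12.16 under Tnfrsf1β-/-, was lower under Tnfrsf1α-/- (difference -2.37, adjusted p = 7.92e-06). Of the genes that parted the Tnfrsf1α-/- label from wild type, Alb was at 0.27 and 0.20 under it and listed at 0 in both treated libraries labelled Tnfrsf1β-/-, and Vim was at 10.63 and 10.92 and 10.23 and 8.93 (difference 1.20, adjusted p = 0.0255).

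**Figure D5:**
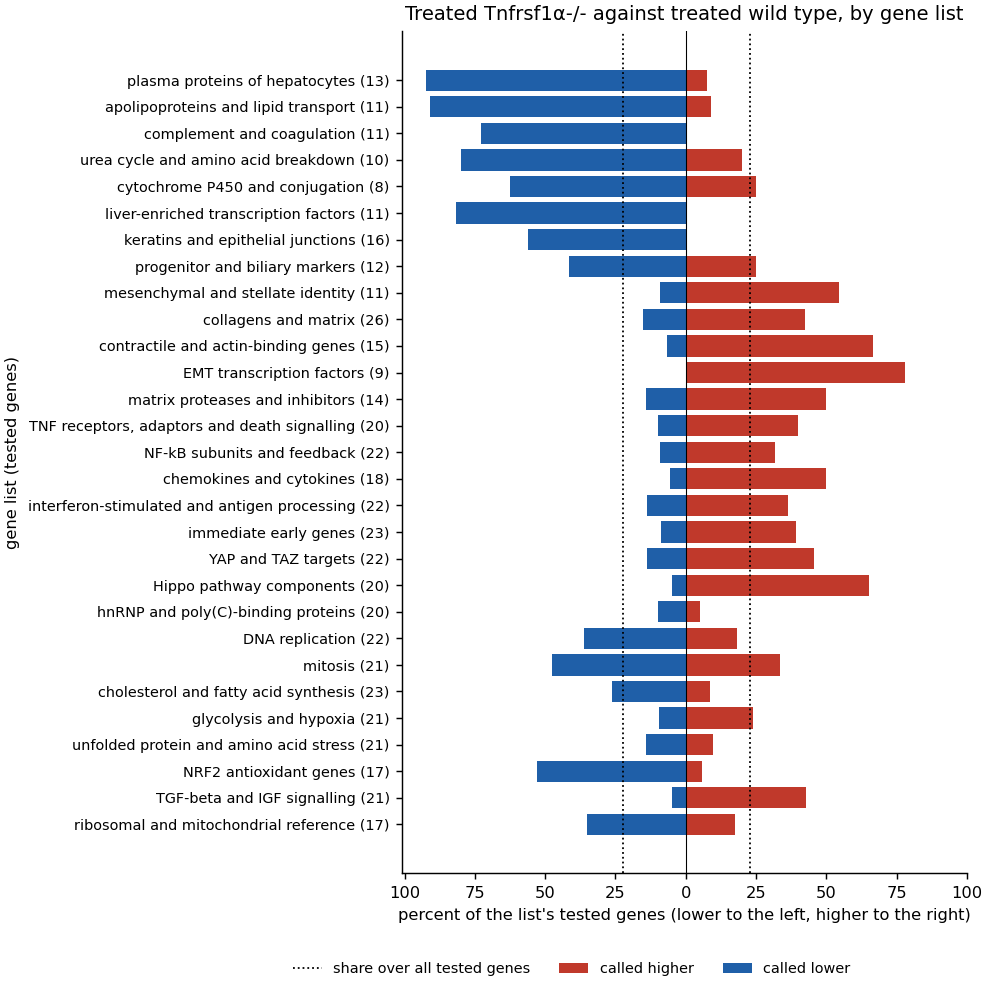
Percent of each list's tested genes (number in brackets) called higher (red, right) and lower (blue, left) in treated Tnfrsf1α-/- against treated wild type (limma, adjusted p under 0.05); dotted lines mark the shares over all 11860 tested genes, 22.7% higher and 22.4% lower. The hepatocyte lists at the top lie mostly to the left (12 of 13 plasma protein genes), the mesenchymal, contractile and EMT lists to the right (7 of 9 EMT factors), and the hnRNP list has 3 calls among 20 genes.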

How the data were processed

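The 12 RNA-seq libraries were described by the labels as total RNA from rat hepatic progenitor cells, 2 per group, extracted with Trizol and made into TruSeq libraries from 1 ug, per the labels' protocols. The authors deposited 1 table of expression with 22730 lines, with 346 lines lacking a gene symbol (not used) and 1835 sharing theirs with another line. Its values are deposited on a log2 scale, read as log2(FPKM + 1) from their range (lowest 0, highest 16.8); the base and the added 1 are inferred from the values. The sources used here do not give the aligner, the counting tool, the strand setting or the genome build. Read depth is unknown, so no counting interval was computed and no count test could be run.

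Tested genes (11860) had a 12-library mean FPKM no lower than 1. A model with 6 group means was fitted to the deposited log2 values of all 12 libraries with limma 3.58.1 in R 4.3.3, with a mean-variance trend, two-sided tests and Benjamini-Hochberg adjustment over all tested genes at 0.05. Because 1 is added before the logarithm, differences understate changes of low genes, and no fold is given where a group is listed at 0. The groups compared directly have 2 libraries each, so the spread is pooled over the 6 groups. Pooling takes the spread as equal, but the treated Tnfrsf1α-/- pair differed by over 2 log2 units in 1231 genes, against 8 to 127 in the other groups. For genes in which this pair spread more than the others, the p-values understate its spread. The fit and its calls were checked on simulated data in which all libraries shared the same spread for a gene. That check does not cover a pair as far apart as the treated libraries labelled Tnfrsf1α-/-.

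Genes described are those of both TNF receptors, YAP, TAZ and hnRNPK, the 15 highest and 15 lowest called differences with groups that do not overlap, up to 6 genes per list by smallest p, the 10 largest gaps between the 2 treated Tnfrsf1α-/- libraries in each direction, and 5 genes per direction of the interaction and of the direct comparison. Any other gene named was picked with its values in view. A few genes under these rules are not reported here, though counts and medians include them. The comparison, the lists and the promoter motifs were chosen with earlier results of these data known. List medians and counts are descriptions. Promoter sequences come from RefSeq on GRCr8, matched by symbol; 88.1% of tested genes have a symbol in that annotation, and no deposited coordinate was used. Alternatives were a pseudocount of 0.1, 2 other filters, 2 scalings, array weights, other sets of libraries and a replicate block.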

Additional observations from a re-analysis of the deposited data

Results flagged for a closer look

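The difference between Tnfrsf1α-/- and wild type was itself different with and without TNFα, by the interaction term of limma. It was higher with TNFα in 1522 genes (12.8%) and lower in 2605 (22.0%), with a median over all tested genes of -0.44. After median-ratio scaling the counts were 2066 and 1867, so which direction held more genes depended on the scaling. On the log2(FPKM + 1) scale the interaction was 9.55 for Akr1b1 and 10.04 for Nt5e. It was -14.72 for Ceacam6, -10.06 for Ahsg, -10.13 for Sfrp1, -9.85 for Sox2 and -9.73 for Alb, values whose size depends on the added 1 because at least 1 of the 4 groups is listed at 0. For the diacylglycerol kinase gene Dgkz the interaction was 9.20: it was at 12.92 and 12.70 in untreated wild type and at 3.56 and 3.61 under the label without TNFα, but at 10.37 and 10.50 against 10.44 and 10.38 with TNFα. The Polycomb-associated gene Phf19 had the same form (interaction 10.89), at 13.04 and 12.86 against 2.07 and 1.97 untreated, while the treated groups overlapped (difference -0.03, limma adjusted p = 0.913).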

How the results depend on the processing

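With only the groups compared in the fit 927 genes were higher and 1184 lower in treated Tnfrsf1α-/- than in treated wild type, the interaction was lower in 1659, and the direct comparison with treated Tnfrsf1β-/- gave 337 and 45. Array weights gave 1213 and 1189, then 983 and 1377 for the interaction, and 471 and 161 for the direct comparison. Median-ratio scaling turned the split of the direct comparison to 1738 higher and 2454 lower, and quantile normalization to 1592 and 2191. Without the untreated knockout libraries, an alternative chosen after seeing the data, the counts were 1779 and 1858, and 2166 and 773 in the direct comparison. Leaving out 1 library at a time gave 1402 to 4157 genes higher and 1679 to 3559 lower against wild type, 973 to 2527 and 1416 to 4598 for the interaction, and 1583 to 5720 and 604 to 1936 for the direct comparison. Of the 5356 genes called against wild type, none was called in the opposite direction under any alternative run, and 39.1% (only the groups compared) to 99.0% (replicate block) were called in the same direction. The sign of Hnrnpk turned when treated Tnfrsf1α-/- replicate 1 was left out and not replicate 2 (-0.25 to 1.83), and that of Tnfrsf1b likewise (-2.50 to 1.59). Of 142 called genes named in the text 99 were called under every alternative that tested them. The filter on libraries outside the comparison tested only 114 of the 142. With only the groups compared 33 lost their call, and with array weights 18 did. The 33 included Plat, Fn1, Ier3, Jun, Krt8, Foxa2, Stk3, Ddit3, Actg1, Asl, Col4a1, Mgst1, Pola1, Tgfbr1 and Usp18. Nt5e, Mvd, Tap2, Zeb1 and Actg1 were among the 18. Without a filter on low values 2703 and 3491 genes were called. With the replicate number as a block 2922 genes were higher and 2795 lower against wild type; the numbers do not pair the samples by the labels, and libraries of the same number had correlations of their deviations of -0.17 to 0.24 over the pairs of groups. With the labels unclear on separate cultures and 2 libraries per group, differences within the spread between replicates were not detectable, and with depth unknown low values cannot be weighed by their counts.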
